A study of Mus musculus with 12 samples.

Results

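The sites described here are binding sites of Rev-Erbα that crowd around the same gene in brown adipose tissue of cold-housed mice. They were taken from the list of HA-RevErbα peaks at 4 °C as every site whose assigned gene occurs in at least 8 rows of that list. The rule chose 1163 of 11227 sites, at 116 of 5451 genes, so 10.4% of the sites lie at 2.13% of the genes. Because the 4 °C peaks made the choice, the number of sites per gene, their spacing, their distance from the start and their 4 °C signal are descriptions. They are given with no test.

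The chromatin came from brown adipose tissue of C57BL/6 mice and was pulled down with HA magnetic beads. There were 4 libraries from HA-RevErba mice kept at 4 °C for 1 week, 4 from HA-RevErba mice kept at 29 °C (thermoneutrality) for 1 week, 2 from WT mice at 4 °C and 2 from WT mice at 29 °C. HA-RevErba mice carry Rev-Erbα with the HA epitope tag, and WT mice carry no tag, so the WT pull-down gives the background of the beads. The sources used here do not state how the tagged allele was made or expressed, nor the age of the mice. Every peak value comes from 1 pool of libraries per genotype and temperature, so differences between temperatures have no replicate check and carry only counting intervals. Between 27.0 and 37.3 M reads aligned per library, and the pools behind the values hold 63.8 M reads for HA-RevErba at 4 °C, 60.8 M for HA-RevErba at 29 °C, 27.1 M for WT at 4 °C and 25.1 M for WT at 29 °C. No expression was measured, so the tissue label could not be checked against marker genes. In bulk tissue, fewer cells of a type and less binding per cell cannot be told apart.

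Rev-Erbα, the product of Nr1d1, is a nuclear receptor that represses transcription by recruiting the NCoR corepressor complex. It acts in the circadian clock by repressing Arntl. It binds as a monomer to the sequence AGGTCA preceded by an A/T-rich flank, and it can also occupy DNA through other factors. In brown fat it is known for restraining genes of heat production in a daily rhythm.

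Most of the chosen sites lie far from promoters, so promoter sequence bears on few of them. Kank1, an actin regulator, and Kdr, the vascular endothelial growth factor receptor, have a site centred in the RefSeq promoter window, which spans 250 bases before to 50 after the start. Nfil3, a leucine-zipper repressor of the clock output, has its strongest site 52 bp after the start, and Arntl, the clock activator also called Bmal, has its second strongest site 137 bp after it. These 2 were added after their values were seen. The 4 windows are printed from RefSeq on GRCm38.p6 in the direction of transcription, and capitals mark TAGGTCA or its reverse complement TGACCTA. They show sequence near 2 strong and 2 weak sites close to a start, too few to relate sequence to signal.
Arntl, chr7:113207261-113207560, plus strand: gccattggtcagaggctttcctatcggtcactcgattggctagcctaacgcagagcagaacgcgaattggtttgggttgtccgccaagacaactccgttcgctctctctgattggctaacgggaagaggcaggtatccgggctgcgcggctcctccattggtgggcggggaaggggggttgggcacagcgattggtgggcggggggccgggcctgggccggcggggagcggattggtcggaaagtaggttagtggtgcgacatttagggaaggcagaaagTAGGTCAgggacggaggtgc
Nfil3, chr13:52980990-52981289, minus strand: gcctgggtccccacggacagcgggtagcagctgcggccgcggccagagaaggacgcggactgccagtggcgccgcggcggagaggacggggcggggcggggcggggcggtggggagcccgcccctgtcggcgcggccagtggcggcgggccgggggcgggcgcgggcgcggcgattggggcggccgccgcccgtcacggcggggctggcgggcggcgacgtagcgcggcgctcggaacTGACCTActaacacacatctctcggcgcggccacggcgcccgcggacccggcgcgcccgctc
Kank1, chr19:25236725-25237024, plus strand: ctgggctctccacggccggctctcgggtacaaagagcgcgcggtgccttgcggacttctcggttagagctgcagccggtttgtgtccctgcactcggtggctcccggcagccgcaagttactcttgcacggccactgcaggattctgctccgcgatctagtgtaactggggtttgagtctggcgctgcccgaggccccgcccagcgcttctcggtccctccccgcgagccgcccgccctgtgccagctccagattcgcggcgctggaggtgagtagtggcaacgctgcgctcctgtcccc
Kdr, chr5:75978406-75978705, minus strand: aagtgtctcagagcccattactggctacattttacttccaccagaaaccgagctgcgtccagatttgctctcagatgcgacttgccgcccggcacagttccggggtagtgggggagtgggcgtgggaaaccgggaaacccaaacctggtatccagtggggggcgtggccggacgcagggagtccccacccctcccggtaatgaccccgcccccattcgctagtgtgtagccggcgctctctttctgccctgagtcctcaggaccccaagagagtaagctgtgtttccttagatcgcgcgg
AGGTCA was searched on both strands, as itself and as TGACCT, and TAGGTCA as a longer form of it. In the Arntl window TAGGTCA begins 30 bases after the start on the gene's strand, and in the Nfil3 window TGACCTA begins 12 bases before it. Neither form occurs in the printed Kank1 and Kdr windows, nor in the window of the other RefSeq start of Arntl, which is not printed. Prkag2, a gene of an AMP-activated kinase subunit, also has a site near a start, at -115 bp, with 9.73 FPKM at 4 °C and 2.89 FPKM at 29 °C. It has 3 RefSeq windows, of which 1 holds TGACCT and none holds the longer form. The start meant is not known, and none is printed. For Arntl the start meant is not known either, and the printed Arntl window is the 1 that holds the motif. Of all 32851 promoter entries 16.3% hold AGGTCA and 2.61% hold TAGGTCA, and of the 125 entries of the 82 loci with an entry 12.8% and 2.4% do. The Arntl site had 43.14 FPKM at 4 °C and 26.24 FPKM at 29 °C, and the Nfil3 site 28.32 and 13.17 FPKM. The Kank1 site had 6.05 and 1.49 FPKM, and the Kdr site 4.87 and 1.41 FPKM. FPKM (fragments per kilobase, scaled to the depth of the pool) is here the authors' read density in a 200 bp window. Arntl has 2 RefSeq starts in the table, and the files do not say which one the distance refers to. Counted from the printed start, the Arntl site spans 37 to 237 bases after it. The printed window then holds only the first bases of the site, and TAGGTCA begins before the site. The deposited windows are on mm9, for which no genome sequence was used here, so none is printed.

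The number of sites per locus ranged from 8 to 21, with a median of 9. There were 33 loci with 8 sites, 31 with 9, 18 with 10, 13 with 11 and 21 with 12 or more. Zfp608, a zinc finger protein gene, had the most with 21. Col4a2, Klf4 and Plpp3 followed with 17 each, Celf2 with 16, and Nav2, Tbl1xr1, Galnt18 and H2afy3 with 15 each. By gene type, 95 loci are named for a protein-coding gene, 20 for a non-coding RNA (5 of them a miRNA) and 1 for a pseudogene. The 33 genes with exactly 8 sites include Ergic1, Mgll and Gja1, whose sites sum to 129.6, 115.2 and 110.9 FPKM at 4 °C. The 60 genes with exactly 7 sites, just outside, include 3930402G23Rik, Mir6995 and Spry4, which sum to 131.3, 123.0 and 98.49 FPKM. The sites of the genes with 8 overlapped a 29 °C peak in 52 of 264 cases (19.7%), and those of the genes with 7 in 70 of 420 (16.7%), where 14.9% of all 4 °C sites did.

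**Figure D1:**
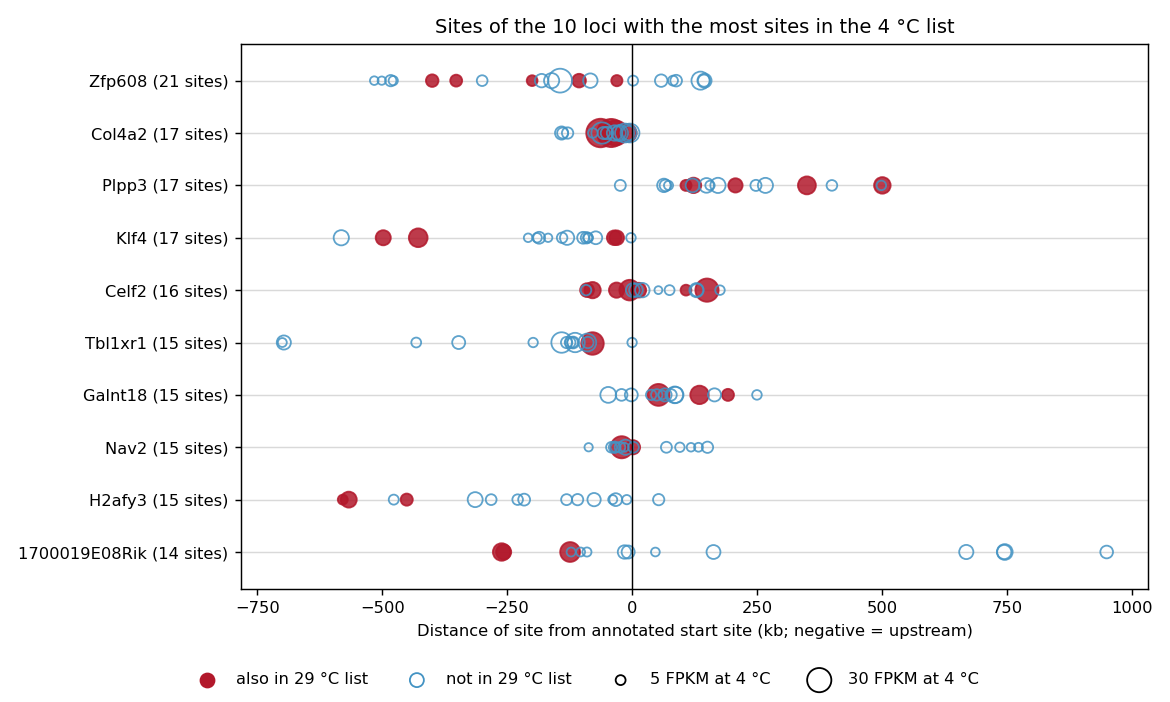
Positions of the sites of the 10 loci with the most sites, as distance from the nearest annotated start of the gene in kb (x axis, negative upstream), 1 locus per line. Circle area scales with HA-RevErbα FPKM at 4 °C, and filled red circles also overlap a 29 °C peak. All 17 Klf4 and all 17 Col4a2 sites lie upstream, and 4 of each are red.

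The chosen sites lie farther from the annotated start of their assigned gene than other sites do. Their median distance from the annotated start was 65.6 kb, against 24.7 kb for the other 10064 sites of the 4 °C list. A distance over 100 kb was found for 368 of them (31.6%) and for 14.8% of the other sites. Only 15 (1.29%) lie within 1 kb of a start, against 5.49% of the others, and 10 (0.86%) are annotated as promoter, against 4.16%. Introns hold 576 (49.5%, others 47.6%) and intergenic sequence 559 (48.1%, others 43.9%). At 83 loci the sites lie on both sides of the start, at 26 all lie downstream and at 7 all lie upstream.

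The gene assigned to a site in the authors' list is not always the gene whose body holds it. Of the 576 intronic sites, 124 (21.5%), at 25 loci, lie in an intron of another gene. For the type IV collagen pair, which is transcribed from a shared promoter region in opposite directions, 14 of 17 Col4a2 sites lie in introns of Col4a1 and all 9 Col4a1 sites in introns of Col4a2. The non-coding locus 2010106C02Rik has 10 of its 11 sites in introns of Prkce, a protein kinase C gene. Mir1904 has 7 of 9 in Pde4d, which encodes a cyclic AMP phosphodiesterase. Nr3c1, the glucocorticoid receptor gene, has 5 of 11 in Arhgap26. A locus is named here by the gene assigned in the list, without a claim on which gene the sites act.

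Neighbouring sites of a locus were a median of 12.4 kb apart over 1047 gaps, measured from start to start. The middle 80% of the gaps ran from 1.72 to 69.4 kb, the shortest was 474 bp and the longest 726 kb. Gaps under 2 kb numbered 123 (11.7%), gaps under 10 kb made up 42.9%, and gaps of 100 kb or more numbered 50 (4.78%). In the whole 4 °C list the 11204 gaps between neighbouring sites had a median of 46.3 kb, with 23.7% under 10 kb and 35.4% of 100 kb or more. Close spacing follows from the rule, so these values describe the loci and were not compared by a test.

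**Figure D2:**
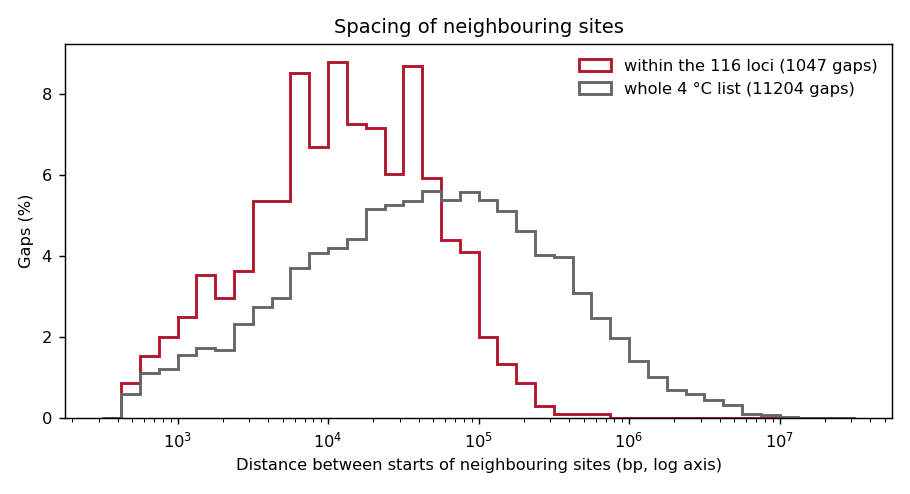
Distance between the starts of neighbouring sites (x axis, bp, log axis) as a percentage of all gaps (y axis), for the 1047 gaps within the 116 loci (red) and the 11204 gaps of the whole 4 °C list (grey). The red curve peaks at shorter distances, with a median of 12.4 kb against 46.3 kb.

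From first to last site the loci spanned a median of 187 kb. Mgll, which encodes monoacylglycerol lipase, was the shortest at 41.64 kb, and the non-coding locus 1700019E08Rik the longest at 1211 kb. The tightest median spacing was found at Adamts2, a procollagen peptidase gene (3.81 kb, 9 sites), and at Slc25a33, a mitochondrial nucleotide carrier gene (3.90 kb, 10 sites). Bmper, which encodes a BMP-binding regulator, had the widest (56.5 kb, 8 sites), ahead of 1700019E08Rik (54.5 kb, 14 sites) and Ptprg, a receptor tyrosine phosphatase gene (49.7 kb, 11 sites). Tight spacing did not come with sharing between temperatures at these loci, since Adamts2 and Slc25a33 had no site that overlapped a 29 °C peak.

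Within any 20 kb, the most sites of 1 locus were 6, at Zbtb16 (in 17.2 kb, 2 of them in the 29 °C list) and at Mgll (in 16.9 kb, 3 of them). Another 14 loci reached 5 sites within 20 kb, 27 reached 4 and 59 reached 3. Of the 123 pairs of neighbours under 2 kb apart, both sites overlapped a 29 °C peak in 7, 1 site did in 38 and no site did in 78. Over all 1047 pairs the counts were 48, 301 and 698. Close neighbours were thus listed differently at 29 °C in 38 of 123 pairs.

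Some of the loci adjoin, so their sites form longer runs. Col4a2 and Col4a1 hold 26 sites over 221 kb (6 in the 29 °C list), with 14.0 kb between the last site of the first and the first site of the second. Arhgap26 and Nr3c1 hold 23 over 589 kb (6 in the 29 °C list) across a gap of 25.6 kb, and Irf2bp2 and Tomm20 hold 23 over 362 kb (9 in the 29 °C list) across a gap of 38.8 kb. Sites of such pairs share a region and are not separate examples of it. Plpp3 and Usp24, and Klf4 and Actl7b, are also neighbours, but gaps of 315 kb and 273 kb keep their sites apart.

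Sites within a locus were unequal. The strongest site had a median of 17.97 FPKM at 4 °C over the 116 loci (8.32 at Rftn1 to 58.43 at Dhrs3), and the weakest a median of 4.24 FPKM (3.15 at Celf2 to 10.44 at Ergic1). The strongest was a median of 4.11 times the weakest, and it held a median of 19.6% of the locus sum (10.9% to 37.7%). Arntl showed the largest fold (11.7), followed by Dhrs3 (10.9) and Col4a2 (8.84), and the smallest were those of Slc25a33 (2.06), Rftn1, a lipid raft protein gene (2.21), and Bmper (2.29). The strongest site was the one nearest to the start at 8 of the 116 loci.

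The strongest site of all was at Dhrs3, which encodes a retinaldehyde reductase (chr4:144551725-144551925 on mm9, 68.8 kb from the start, intergenic). It had 58.43 FPKM at 4 °C and 38.91 FPKM at 29 °C in HA-RevErba mice, with 2.77 and 4.2 FPKM in WT. At Zbtb16, a zinc finger repressor gene, an intronic site (chr9:48554673-48554873, 89.3 kb) had 53.72 FPKM at 4 °C and 51.90 FPKM at 29 °C, with 3.14 and 2.20 FPKM in WT. Its 4 °C to 29 °C ratio was 1.04 (0.928 to 1.16), so the 2 pools differed by less than their counting error there. The next in order were both at Arntl, an intronic site with 48.63 FPKM at 4 °C and 17.28 FPKM at 29 °C (chr7:120394674-120394874, 43.8 kb) and the site in the 5′ UTR described above (chr7:120351016-120351216). Irf2bp2, a corepressor gene, had the fifth, with 42.75 FPKM at 4 °C and 27.23 FPKM at 29 °C (chr8:129259811-129260011, -143 kb). All 5 overlapped a 29 °C peak.

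**Figure D3:**
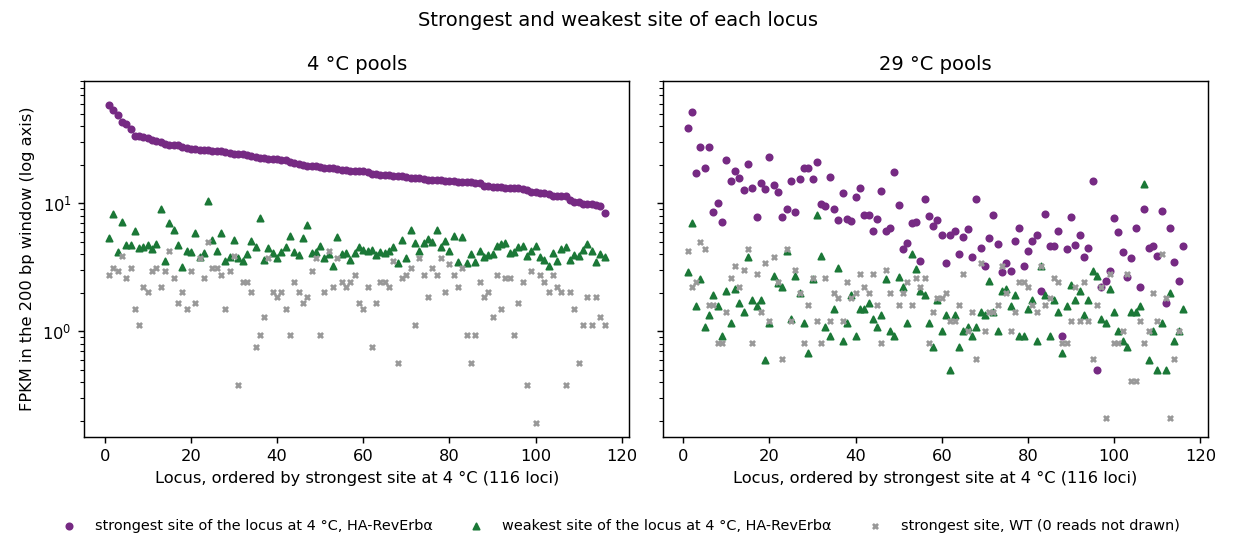
HA-RevErbα FPKM (y axis, log axis) of the strongest (purple circles) and the weakest site (green triangles) of each of the 116 loci, with WT at the strongest site (grey crosses), in the 4 °C pools (left) and the 29 °C pools (right). Loci are ordered along both x axes by their strongest site at 4 °C, and strongest and weakest are as ranked at 4 °C. At 29 °C the purple and green points overlap, and 2 WT values with 0 reads are not drawn.

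Of the 1163 sites, 220 shared at least 1 bp with a peak of the 29 °C list, which is 18.9% (Clopper-Pearson 95% interval 16.7 to 21.3). Over all sites of the 4 °C list the share was 14.9%, and over the 10064 other sites it was 14.4% (13.7 to 15.1). Sites of 1 locus share a region and are not independent, so the intervals cover counting error only. The chosen sites also had more signal at 4 °C, a median of 8.48 FPKM (WT 1.30) against 6.99 FPKM (WT 1.12) for the others, and 37.7% of them reached 10 FPKM against 25.4%. Split by 4 °C signal, the share was 2.59% (5 of 193) below 5 FPKM against 3.3% for the others, 4.48% (13 of 290) against 7.1% from 5 to 7.5 FPKM, and 12.4% in both sets from 7.5 to 10 FPKM. It was 29.8% (79 of 265) against 23.4% from 10 to 15 FPKM, 47.1% (65 of 138) against 50.1% from 15 to 25 FPKM, and 80% (28 of 35) against 89.8% at 25 FPKM or more. At like signal the 95% intervals of the 2 sets overlapped in all 6 ranges, so no direction is read. The share of the chosen sites was higher in 1 range, equal in 1 and lower in 4. By number of sites per gene it ran from 12.8% at genes with 1 site and 14.4% at 2 to 3, through 15.4% at 4 to 5 and 17.0% at 6 to 7, to 19.3% at 8 to 9, 17.2% at 10 to 12 and 21.4% at 13 or more. The median 4 °C signal in those classes was 6.28, 7.07, 7.46, 8.01, 8.48, 8.48 and 8.01 FPKM.

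**Figure D4:**
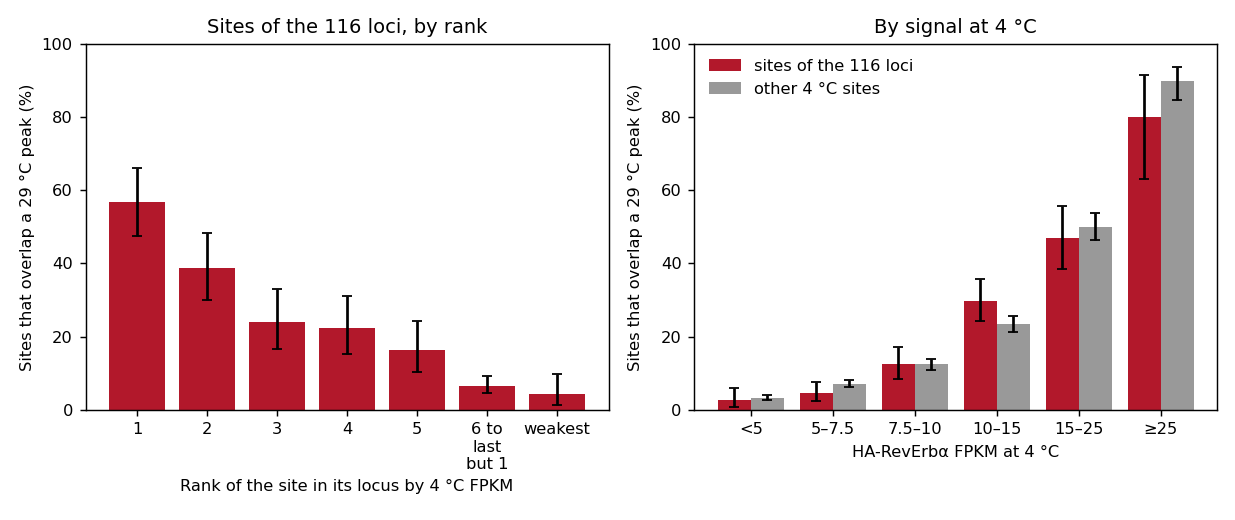
Percentage of 4 °C sites that overlap a 29 °C peak (y axes), with exact 95% binomial intervals as bars. Left, sites of the 116 loci by their rank in the locus by 4 °C FPKM, from 56.9% for the strongest to 4.31% for the weakest. Right, sites of the 116 loci (red) and other 4 °C sites (grey) in ranges of 4 °C FPKM.

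Rank within the locus went with the share. The strongest site overlapped a 29 °C peak at 66 of 116 loci (56.9%), the second at 38.8%, the next 3 ranks at 24.1%, 22.4% and 16.4%, the middle ranks at 6.64% and the weakest at 4.31%. Median signal along the same ranks was 17.97, 13.97, 11.77, 10.36, 8.83, 6.36 and 4.24 FPKM at 4 °C, and 7.12, 4.90, 4.12, 3.01, 2.85, 2.15 and 1.45 FPKM at 29 °C. The median 4 °C to 29 °C ratio was 2.65 for the strongest and between 2.80 and 3.14 for every other rank. By 4 °C signal, the median ratio of the chosen sites was 1.92 at 25 FPKM or more and 2.88 to 3.13 in the lower ranges. For the other sites it was 1.96 and 2.90 to 3.20. The 29 °C list held fewer of the weak sites, and what part its limits had in that was not tested. The weakest sites had a 29 °C median of 1.45 FPKM against 0.91 FPKM in WT. The strongest site at 4 °C was also the strongest at 29 °C at 63 of 116 loci (54.3%), and it was among the top 3 at 101.

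At 21 of the 116 loci no site overlapped a 29 °C peak, at 28 loci 1 did, at 31 loci 2 did and at 36 loci 3 or more did. The share reached 50% or more at 2 loci. Dapk1, a death-associated protein kinase gene, had 6 of 9 sites in the 29 °C list (66.7%) and Nfil3 had 4 of 8 (50%). They were followed by Sema6d, a semaphorin gene (4 of 9), Celf2 (7 of 16), and, with 5 of 12 each, Tomm20, which encodes a mitochondrial import receptor, and Pik3r1, which encodes a regulatory subunit of phosphoinositide kinase. The loci with no shared site and the most sites were Nfia and Dusp6 (12 each), Tns1 (11), and Tle3, Ccnl1, Trib1, Chst11, Ly86 and Slc25a33 (10 each). At 29 loci some site was shared but the strongest was not.

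Signal in the same 200 bp windows was lower at 29 °C at most sites, on or off the 29 °C list. The median of the chosen sites was 8.48 FPKM at 4 °C and 2.81 FPKM at 29 °C, with 1.30 and 1.21 FPKM in WT. The other sites had 6.99 and 2.31 FPKM, with 1.12 and 1.21 FPKM in WT. The median 4 °C to 29 °C ratio was 2.99 for the chosen sites (1.76 to 5.43 from the 10th to the 90th percentile) and 3.06 for the others (1.73 to 5.81). A ratio of at least 2 was found at 974 of 1163 sites (83.7%), and over all sites of the 4 °C list at 83.4%. The counting interval lay above 1 at 1121 sites (96.4%, all sites 95.4%) and below 1 at 3 (all sites 0.41%). The ratio itself was below 1 at 12 sites (1.03%, all sites 1.31%). These shares lie near those of all sites, and the windows were picked for their 4 °C signal, which favours a ratio above 1.

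The 943 sites with no overlapping 29 °C peak were not empty at 29 °C. They had a median of 7.54 FPKM at 4 °C and 2.39 FPKM at 29 °C in HA-RevErba mice, against 1.30 and 1.41 FPKM in WT, and at 789 of them (83.7%) the 29 °C HA-RevErba value was above its WT value. The listed peaks all had at least 3 FPKM more than WT and at least about 4 times the WT value at their own temperature, and 15 of the 943 met both limits in their 4 °C window. The 220 shared sites had 13.42 FPKM at 4 °C and 6.71 FPKM at 29 °C, with WT at 1.48 and 1.01 FPKM, and their median ratio was 1.99 against 3.22 for the 943. Absence from the 29 °C list therefore covers sites with reduced signal as well as sites at the WT level.

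Few sites departed from the common direction. At Ghr, the growth hormone receptor gene, the site at -30.7 kb had 4.56 FPKM at 4 °C and 14.16 FPKM at 29 °C, a ratio of 0.322 (0.235 to 0.435), and was the weakest of the 9 at 4 °C and the strongest at 29 °C. At Marcks, an actin-binding kinase substrate gene, a site at -18.5 kb had 3.70 and 8.07 FPKM (0.457, 0.316 to 0.654). At Thrb, a thyroid hormone receptor gene, a site at 18 kb had 4.71 and 8.07 FPKM (0.584, 0.416 to 0.813). These are the 3 sites whose interval lay below 1. At the other end, a Cpeb2 site at -546 kb had 13.03 FPKM at 4 °C and 0.50 FPKM at 29 °C, a ratio of 26.4 (11.9 to 72.9). These 4 were chosen after their values were seen.

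**Figure D5:**
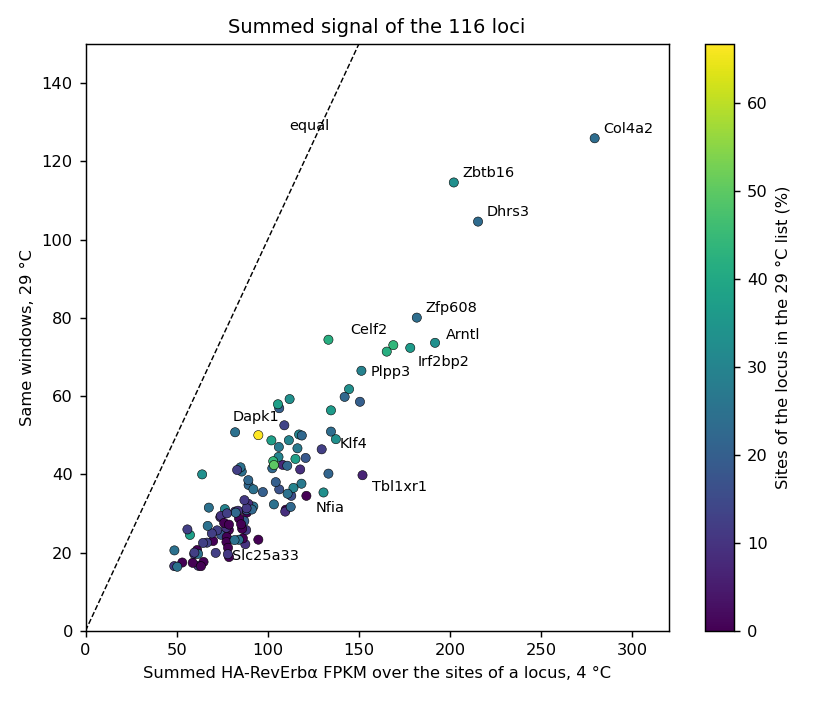
HA-RevErbα FPKM summed over the 4 °C windows of each locus, at 4 °C (x axis) and in the same windows at 29 °C (y axis), 1 point per locus (116), coloured by the percentage of its sites in the 29 °C list. All points lie below the dashed line of equality. Col4a2 has the largest sum, 279.4 FPKM at 4 °C and 125.9 FPKM at 29 °C, and Dapk1 the highest percentage.

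Over the loci, the median ratio of a locus ran from 1.99 at H2afy3 to 5.28 at Cpeb2, and it was at least 2 at 115 of 116. Sums over a locus count its windows of 200 bp each and so grow with the number of sites, while both temperatures use the same windows.

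Over all 21900 protein-coding genes in RefSeq, 20.9% had at least 1 site and 0.434% had 8 or more. Of those with a site, 2.07% had 8 or more. The gene lists below were picked with earlier results of these data known. They include Zfp608, Klf4, Col4a2, Plpp3, Celf2 and Nav2, loci given beforehand as having many 4 °C sites. Their counts are thus partly fixed in advance and stand beside these shares only as descriptions. Among the clock genes, Arntl, Nfil3 and Hlf had 8 or more sites, 3 of 20 listed genes, and 17 of the 20 had at least 1. The 9 Arntl sites spread over 74.63 kb, from -21.2 to 53.2 kb, a median of 9.11 kb apart. In order along the chromosome they had 12.32, 23.22, 43.14, 9.34, 4.17, 15.69, 17.73, 48.63 and 17.58 FPKM at 4 °C, and 2.48, 5.93, 26.24, 1.82, 1.57, 5.60, 6.92, 17.28 and 5.77 FPKM at 29 °C. WT values over these sites were 0.75 to 2.96 FPKM at 4 °C and at most 2.80 FPKM at 29 °C. Every Arntl site was lower at 29 °C, by a ratio of 1.64 at the 5′ UTR site up to 5.16 at the intronic site at 8.96 kb, and 3 of the 9 overlapped a 29 °C peak. A pair of intronic sites lay 591 bp apart, at 34.9 and 35.4 kb. They had nearly the same values, 15.69 FPKM at 4 °C and 5.60 FPKM at 29 °C for the first and 17.73 and 6.92 FPKM for the second, and the second overlapped a 29 °C peak while the first did not.

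The 8 Nfil3 sites had 6.13 to 28.32 FPKM at 4 °C with a median of 10.63, and 1.57 to 13.17 FPKM at 29 °C with a median of 4.165. The promoter site led at both temperatures (ratio 2.15, 1.78 to 2.61) and had 2.59 FPKM at 4 °C and 0.81 FPKM at 29 °C in WT. An intronic site at 4.14 kb had 18.75 FPKM at 4 °C and 3.55 FPKM at 29 °C, a ratio of 5.30 (3.82 to 7.51), against 1.57 (1.22 to 2.03) for the intronic site 1.99 kb beside it, which had 13.03 and 8.32 FPKM. The intervals of these 2 ratios do not overlap. Hlf, a leucine-zipper clock output activator gene, had no shared site among 8. Its strongest, at -27.2 kb, had 28.24 FPKM at 4 °C and 7.74 FPKM at 29 °C (WT 1.67 and 2.80).

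Of 46 genes for adipocyte transcription factors, 34 had a site and 7 had 8 or more. Over all protein-coding genes the shares were 20.9% and 0.434%, and 2.07% of those with a site had 8 or more. At Zfp608 the 21 sites spread over 662 kb of chromosome 18, 14 of them upstream, with a median spacing of 23.0 kb and a longest gap of 100 kb. Their 4 °C values ran from 3.54 to 29.10 FPKM with a median of 7.30, their 29 °C values from 1.33 to 12.59 FPKM with a median of 2.97. The locus summed to 181.8 FPKM at 4 °C and 80.05 FPKM at 29 °C, with 30.61 and 28.35 FPKM in WT. The strongest site, at -144 kb, had 29.10 FPKM at 4 °C and 12.59 FPKM at 29 °C (WT 2.96 and 3.0) and led at both temperatures, yet no 29 °C peak overlapped it. The 5 shared sites were weaker, at -30.4, -106, -200, -352 and -400 kb, with 5.97 to 9.58 FPKM at 4 °C and 4.45 to 5.36 FPKM at 29 °C. WT at those 5 was 0.61 to 1.41 FPKM at 29 °C.

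Klf4, a Krüppel-like factor gene, had all 17 sites upstream in intergenic sequence, from -2.16 to -582 kb. A gap of 220 kb set the 3 farthest sites apart from the other 14. Those 3 were the strongest of the locus at 4 °C, with 17.97, 11.69 and 11.85 FPKM at -428, -498 and -582 kb. At 29 °C they had 7.91, 11.11 and 3.55 FPKM. The site at -498 kb had the lowest ratio of the locus (1.05, 0.828 to 1.34) and was the strongest at 29 °C. The site nearest to the start had 4.64 FPKM at 4 °C and 1.08 FPKM at 29 °C.

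Zbtb16 had 9 sites with a median of 18.83 FPKM at 4 °C and 7.41 FPKM at 29 °C. Apart from the strongest, its weakest site (13.5 kb) also had like values at both temperatures, 8.24 FPKM at 4 °C and 7.0 FPKM at 29 °C (ratio 1.18, 0.876 to 1.59). Those 2 sites and the one at 90.7 kb, with 36.63 and 15.55 FPKM, were the 3 shared with the 29 °C list. Nfib, a nuclear factor I gene, had the largest share of its signal in its strongest site, 37.7% of the sum. That intronic site had 32.08 FPKM at 4 °C and 21.89 FPKM at 29 °C (WT 2.04 and 1.41), while the median of the 8 Nfib sites was 6.635 and 2.805 FPKM. At the related gene Nfia the 12 sites were more even, 5.03 to 14.91 FPKM at 4 °C, and none was shared. Its strongest site had 3.22 FPKM at 29 °C, close to 2.40 FPKM in WT. Bcl6, a zinc finger repressor gene, had 3 of 10 sites in the 29 °C list, but its strongest site (-132 kb) was not among them, with 18.91 FPKM at 4 °C and 4.37 FPKM at 29 °C. Nr3c1 had 3 of 11, and its strongest site (129 kb), with 26.91 FPKM at 4 °C and 13 FPKM at 29 °C (WT 1.48 and 3.40), was also not listed at 29 °C.

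Corepressor partners were found as well. Tbl1xr1, a subunit of the NCoR complex, had 15 sites, 14 upstream, and 1 of them overlapped a 29 °C peak. That was its strongest, at -80.9 kb, with 25.97 FPKM at 4 °C and 7.74 FPKM at 29 °C, and the site nearest to the start, at 0.071 kb, was not shared. The locus had a median ratio of 3.89 and sums of 152.0 FPKM at 4 °C and 39.77 FPKM at 29 °C. Tle3, a Groucho corepressor gene, had no shared site among 10, a median ratio of 4.27 and a strongest site of 17.81 FPKM at 4 °C and 5.60 FPKM at 29 °C. Irf2bp2 had 4 of 11 sites in the 29 °C list and sums of 178.2 and 72.32 FPKM.

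Of 21 listed matrix and adhesion genes 16 had a site, and the 2 with 8 or more were Col4a2 and Col4a1, which encode chains of basement membrane collagen. The 17 Col4a2 sites lay between -4.07 and -141 kb, 13 of their 16 gaps under 10 kb. They had 4.71 to 41.65 FPKM at 4 °C with a median of 12.16, and 0.42 to 27.23 FPKM at 29 °C with a median of 4.12. The order of the top 3 differed between temperatures. The site at -63.1 kb had 41.65 FPKM at 4 °C and 18.76 FPKM at 29 °C, the one at -41.7 kb 40.71 and 27.23 FPKM, and the one at -33.3 kb 32.40 and 26.16 FPKM. Their ratios were 2.22 (1.90 to 2.60), 1.5 (1.30 to 1.72) and 1.24 (1.07 to 1.44). The site between the last 2 of these, at -35.0 kb, had 12.16 FPKM at 4 °C and 7.66 FPKM at 29 °C and was not shared. The far site at -129 kb had 6.60 FPKM at 4 °C and 0.42 FPKM at 29 °C, below the 1.01 FPKM of WT. Col4a1 had 9 sites of 9.03 to 30.04 FPKM at 4 °C, the strongest with 15.64 FPKM at 29 °C, and 2 were shared.

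Plpp3, which encodes a phosphatase of extracellular lipid phosphates, was 1 of 7 listed lipid phosphate genes. Of its 17 sites 16 lie downstream of the start, up to 501 kb away. They had 4.24 to 16.48 FPKM at 4 °C with a median of 9.26, and 0.75 to 10.62 FPKM at 29 °C with a median of 3.46. The site at 350 kb led at 4 °C, with 16.48 FPKM against 6.26 FPKM at 29 °C, and the farthest site, at 501 kb, led at 29 °C, with 14.05 FPKM at 4 °C and 10.62 FPKM at 29 °C. A site at 108 kb had 6.28 FPKM at 4 °C and 6.84 FPKM at 29 °C (ratio 0.919, 0.667 to 1.26), and it was 1 of the 5 shared. Of 27 listed names of heat production and brown fat metabolism, of which Lipin1 repeats Lpin1, 23 had a site and 0 reached 8, which at the share of 2.07% over all genes with a site is not a departure to read. At Mgll 3 of 8 sites were shared, though its strongest, with 19.61 FPKM at 4 °C and 6.10 FPKM at 29 °C, was not.

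Celf2, an RNA-binding splicing regulator gene, held 15 of its 16 sites in its own introns and 1 in its 3′ UTR, over 743.1 kb. The values ran from 3.15 to 27.69 FPKM at 4 °C with a median of 9.735, and from 1.24 to 14.40 FPKM at 29 °C with a median of 2.93. Its strongest site at 150 kb led at both temperatures, and its 5 strongest sites were all among the 7 shared ones. Nav2, a neuron navigator gene of cell migration, had 15 sites over 473.6 kb, 12 of them intronic. Its strongest site stood apart, with 25.02 FPKM at 4 °C and 18.84 FPKM at 29 °C at -20.7 kb (ratio 1.33, 1.12 to 1.58), and the second had 11.85 and 3.30 FPKM. The distances at Celf2 and Nav2 are from several annotated starts of the gene, so neighbouring sites can carry unlike distances.

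In the list of growth factor and insulin signalling, which left out Pik3r1 (12 sites), Ghr was the 1 of 21 genes with 8 or more sites. Its 9 sites had 4.56 to 11.30 FPKM at 4 °C, and 3 were shared. The strongest at 4 °C, at -35.2 kb, had 11.30 FPKM at 4 °C and 9.06 FPKM at 29 °C, and it lies 4.47 kb from the site described above that was higher at 29 °C. Both showed little WT signal, 0.38 and 0.75 FPKM at 4 °C and 0.81 and 1.21 FPKM at 29 °C. Dusp6, a phosphatase gene that switches off ERK signalling, had 12 sites within 163 kb and none shared. Its strongest had 18.83 FPKM at 4 °C and 4.86 FPKM at 29 °C, with 4.25 and 2.40 FPKM in WT, and every one of the 12 had a ratio of at least 2.43. At Tns1, a focal adhesion protein gene, all 11 sites were intronic with 4.09 to 11.46 FPKM at 4 °C, ratios were 2.31 to 4.2, and none was shared.

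Of 11 listed endothelial genes all had a site and Kdr had 10. Its strongest, at -36.0 kb, had 15.69 FPKM at 4 °C and 8.07 FPKM at 29 °C, and 2 were shared. Its promoter site was the weakest of the 10.

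At Dapk1 the 6 shared sites included the weakest of its 9, at -108 kb, with 3.54 FPKM at 4 °C and 3.88 FPKM at 29 °C (WT 0.19 and 0.21). The strongest at 29 °C, at -104 kb, had 9.97 FPKM at 4 °C and 11.93 FPKM at 29 °C, a ratio of 0.835 (0.653 to 1.07). These 2 sites lie 3.81 kb apart and both had intervals that include 1. The strongest at 4 °C, in an intron at 83.3 kb, had 24.01 and 9.88 FPKM. H2afy3 had the lowest median ratio of all loci (1.99). Its strongest site, at -567 kb, had 13.03 FPKM at 4 °C and 14.81 FPKM at 29 °C (ratio 0.879, 0.708 to 1.09). At Galnt18, a glycosyltransferase gene, the strongest of 15 sites had 24.63 FPKM at 4 °C and 18.76 FPKM at 29 °C. Ccnl1, a cyclin gene, showed the reverse case, since its strongest site fell to 0.91 FPKM at 29 °C, near 0.81 FPKM in WT, against 13.65 FPKM at 4 °C.

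The 29 °C list assigned 260 of its 2183 peaks (11.9%) to the 116 genes. Of these 40 (15.4%) overlapped no 4 °C peak, against 23.5% over the whole 29 °C list. The genes were chosen for many 4 °C peaks, which favours overlap, so the lower share is only a description. The 40 peaks fell at 31 loci. Their median was 4.56 FPKM at 4 °C and 4.45 FPKM at 29 °C, with 1.85 and 0.71 FPKM in WT. The counting interval of the ratio lay below 1 at 8, above 1 at 8 and included 1 at 24. The one with the most 29 °C signal, at Mthfd1l, a mitochondrial folate enzyme gene, had 3.77 FPKM at 4 °C and 17.36 FPKM at 29 °C (ratio 0.217, 0.155 to 0.298). The part of the higher WT level at 4 °C in keeping these windows off the 4 °C list was not tested.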

How the data were processed

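Chromatin immunoprecipitation and sequencing of HA-tagged Rev-Erbα was done in 12 libraries of brown adipose tissue. Per the submitters' processing notes, Bowtie2 2.1.0, HOMER 4.10 and build mm9 were used; alignment and peak calling settings, and whether starts count from 0 or 1, are not stated, and coordinates stand as deposited. Per the file headers, the deposited lists give each peak an FPKM value in the pools of HA-RevErba and WT at both temperatures and a peak score. The authors added 0.01 FPKM to each value; all FPKM values then gave whole reads within 0.01 FPKM, and these reads gave the 4 °C to 29 °C ratios with exact Clopper-Pearson 95% intervals, which cover counting error only. The alignment files per library gave read numbers. A floor of 3 reads is 0.235, 0.247, 0.553 and 0.598 FPKM in the HA-RevErba 4 °C, HA-RevErba 29 °C, WT 4 °C and WT 29 °C pools. Sites are all windows of 200 bp whose assigned gene has at least 8; lists were compared by an overlap of at least 1 bp. Values come from pools, so no test between temperatures was made and no library could be left out. Members and gene lists were chosen with earlier results of these data known. Loci are named in the text as the leading loci by number of sites, share in the 29 °C list, spacing and fold, the 5 strongest sites, those just inside and outside the limit and members of the gene lists; loci named for a host gene, an adjoining locus or an extreme ratio were chosen after their values were seen. Some loci that this rule names are not reported here. Entrez IDs of 116 of 116 genes matched the RefSeq table of GRCm38.p6, used for names and promoter windows only. Python 3.11.15, pandas 2.3.3, numpy 2.4.6 and scipy 1.17.1 were used, and the scripts were tested on simulated data.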

Additional observations from a re-analysis of the deposited data

How the results depend on the processing

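Of the 47 alternatives computed for 9 results, 24 stayed within 1.5 times the count or within the interval, and 23 moved beyond it. Reversal of a direction was not assessed. Requiring 6, 10 or 12 sites per gene gave 2213, 620 and 297 sites at 281, 52 and 21 loci, against 1163 at 116. Counting sites within 100 kb of the start gave 517 sites at 55 loci, and sites at least 6 FPKM above WT gave 246 at 27. The share in the 29 °C list was 8.6% with 29 °C peaks at least 6 FPKM above WT, and 29.1% for chosen sites at least 6 FPKM above WT, against 18.9%. The median ratio was 4.69 with WT subtracted, 2.69 and 2.44 with 0.5 and 1 FPKM added, 2.64 for sites of at least 2 FPKM at 29 °C and 2.92 at 12 or more sites per gene, against 2.99. Median spacing was 10.1 kb within 100 kb of the start, 15.7 kb for sites at least 6 FPKM above WT and 15.5 kb at 12 or more sites, against 12.4 kb. The median fold of strongest over weakest site was 3.49 with 1 FPKM added, 3.48 at 6 or more sites and 4.70 at 12 or more, against 4.11. These shifts follow from the construction of each alternative, which changes the sites counted or the scale. No paired analysis was possible because the peak values come from pools, in which the replicates cannot be told apart, and for the same reason no library could be left out. Depth limits the weak end: the weakest sites had a median of 1.45 FPKM at 29 °C, and WT pools are shallower.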
